A study of Mus musculus with 32 samples.

Results

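The receptors of the female sex steroids were examined in whole mouse bladder through 5 genes: the estrogen receptor genes Esr1 and Esr2, the progesterone receptor gene Pgr, the membrane estrogen receptor gene Gper1, and Greb1, an estrogen-induced gene whose product is a cofactor of the estrogen receptor. They were the 5 rows of a table of 32285 genes whose Ensembl identifiers carry these symbols. Greb1 is not itself a receptor, and the androgen receptor gene was not analysed here. Each of the 5 passed the filter on low counts in each of the 7 comparisons.

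The estrogen and progesterone receptors of the nucleus are transcription factors that bind their hormone, release heat shock chaperones and act at DNA elements together with coactivators or corepressors. Pgr and Greb1 are classical targets of estrogen through the receptor encoded by Esr1, so their transcripts are often read beside it. Gper1 encodes a G protein-coupled receptor that signals rapidly from membranes. In the bladder, estrogen receptors are known in the urothelium, the stroma and the detrusor muscle, and estrogen is known to affect the lower urinary tract.

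RNA was sequenced from 32 single bladders of female C57BL/6 mice, an inbred strain, which all groups share. The groups were young (2 months of age, n = 6), middle-aged (10 months, n = 5) and untreated old mice (26 months, n = 6), and 3 treated groups of the same old age. Water-treated old mice (n = 5) were gavaged with water, vehicle-treated old mice (n = 4) with 60% Phosal 50 PG, 30% PEG 400 and 10% ethanol, and D + Q-treated old mice (n = 6) with dasatinib at 5 mg/kg/day and quercetin at 50 mg/kg/day, a senolytic pair of a kinase inhibitor and a flavonoid. Gavage was given on 3 days of each month from 21 to 26 months of age. The stage of the estrous cycle, circulating hormones and batches are not given by the labels, so differences in them cannot be told apart from differences between groups.

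The summed counts per bladder ran from 15088372 to 52650259, with a median of 34074787.5. Esr1 collected 252 to 1120 counts per bladder, Pgr 13 to 117, Greb1 8 to 118, Gper1 12 to 73 and Esr2 5 to 39. Levels are given below in CPM, counts scaled to the library's total with TMM factors, and in TPM, which also divides by gene length, wherever genes are compared with each other. The female reproductive tract markers summed to 13.6 to 20.1 CPM over all 32 bladders, and the urothelium markers to 3496 to 4694 CPM, so that bladder markers were present throughout. In whole bladder, fewer cells of a type and less RNA per cell cannot be told apart. Each library was labelled as a bladder of its own, and no pair of libraries held identical counts.

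In mm10, Esr1 (ENSMUSG00000019768) spans chr10:4611593-5005614 on the plus strand, Esr2 (ENSMUSG00000021055) chr12:76120419-76177259 on the minus strand, Pgr (ENSMUSG00000031870) chr9:8899833-8968611 on the plus strand, Gper1 (ENSMUSG00000053647) chr5:139423151-139427800 on the plus strand and Greb1 (ENSMUSG00000036523) chr12:16670615-16800886 on the minus strand. Gper1 overlaps 3110082I17Rik and Greb1 overlaps Gm48140, both on the opposite strand. The libraries were stranded, but the strand setting of the counting is not given in the sources used here, so the values of Gper1 and Greb1 are uncertain where the genes overlap.

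The promoters of Pgr and Greb1 are shown because these were the members that passed the test in a comparison of ages. Each is the 250 bases before a RefSeq transcription start in GRCm38.p6 (the mm10 build), read 5′ to 3′ along the gene. The Pgr window is chr9:8899583-8899832 on the plus strand, and its capitals mark the GC box GGGCGG at positions -47 to -42 from the start. The Greb1 window is chr12:16800887-16801136 on the minus strand, and its capitals mark TGACC at positions -88 to -84, the reverse complement of the estrogen response element half-site GGTCA.
Pgr: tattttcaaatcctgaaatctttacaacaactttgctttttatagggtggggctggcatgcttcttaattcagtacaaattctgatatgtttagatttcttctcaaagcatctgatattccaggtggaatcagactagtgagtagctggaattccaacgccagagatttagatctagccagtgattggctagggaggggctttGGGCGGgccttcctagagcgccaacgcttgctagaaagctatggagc
Greb1: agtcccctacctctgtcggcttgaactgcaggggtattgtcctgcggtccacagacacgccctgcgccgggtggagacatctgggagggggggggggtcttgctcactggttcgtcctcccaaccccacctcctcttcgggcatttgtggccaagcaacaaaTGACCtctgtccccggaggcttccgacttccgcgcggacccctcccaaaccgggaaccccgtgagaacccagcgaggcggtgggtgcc
The full element GGTCANNNTGACC, which reads the same on both strands, was in none of the members' windows, against 0.0639% of 32851 RefSeq promoter windows of mouse. The half-site GGTCA, searched on both strands and contained in the full element, was in windows of Greb1 and Esr2, and 35.2% of all windows held it. The GC box, also searched on both strands, was in the Pgr window, and in 32.7% of all windows. A match is a description of these letters and not a binding site.

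Esr1 was the most abundant of the 5 genes per length in 32 of 32 bladders, with group means of 4.51 to 5.12 TPM. It made up 50.7% to 69.9% of the summed TPM of the 5 genes. Gper1 came next, with group means of 1.45 to 1.77 TPM. Its TPM was above that of Esr2 in 31 of 32 bladders, above that of Pgr in 31 and above that of Greb1 in 32. The lower 3 genes changed places among bladders: the TPM of Esr2 was above that of Pgr in 20 of 32 bladders, and that of Pgr above that of Greb1 in 26. In the middle-aged group Esr2 was above Pgr in 5 of 5 bladders, whereas in the vehicle-treated old group it was above in 1 of 4. The TPM ratio of Esr1 to Esr2, the 2 nuclear estrogen receptors, was 3.37 to 19.5 with a median of 6.74, and its group medians ran from 4.29 in middle-aged to 11.1 in vehicle-treated old bladders.

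**Figure D1:**
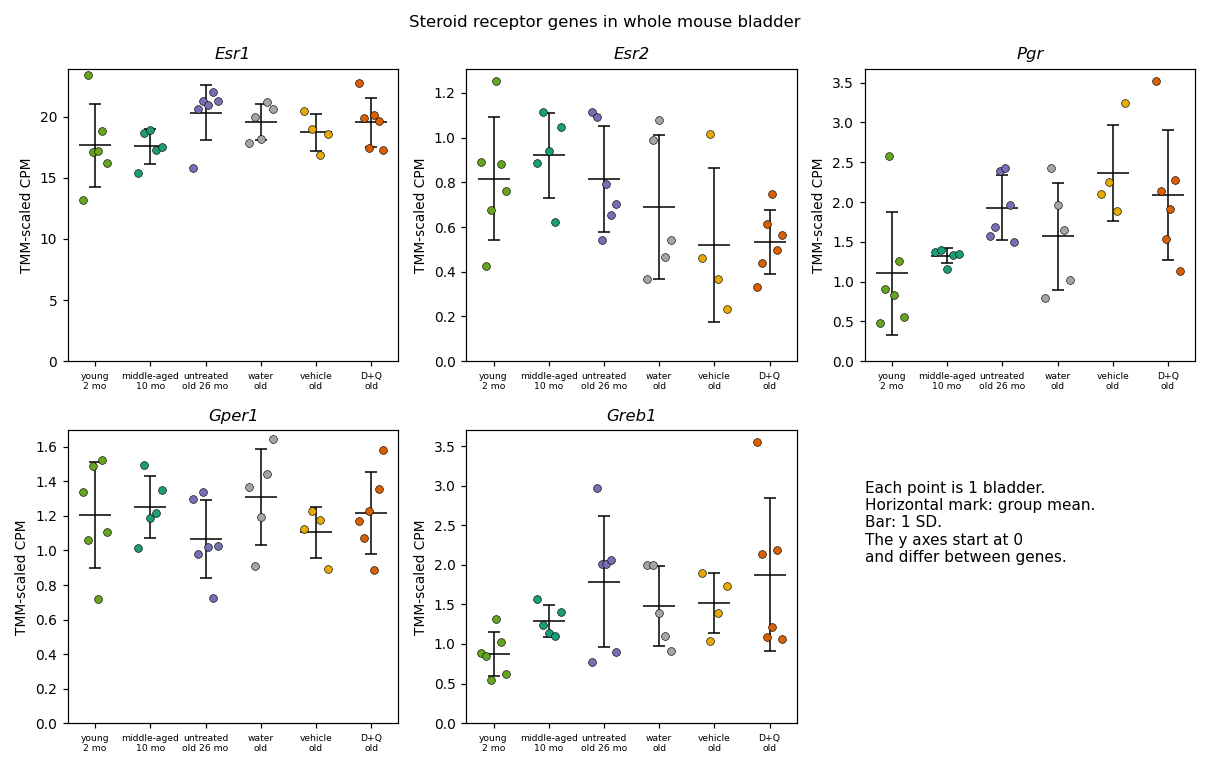
TMM-scaled CPM of the 5 genes (y axes, each starting at 0) in each bladder of the 6 groups (x axis), with the group mean and 1 SD. Pgr in the 6 untreated old bladders lay at 1.503 to 2.43 CPM, above the 5 middle-aged bladders at 1.16 to 1.40 CPM, while young bladders spread from 0.483 to 2.58 CPM.

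Pgr, the nuclear progesterone receptor and a classical estrogen target, rose from middle age to old age. The middle-aged bladders had 1.38, 1.40, 1.16, 1.33 and 1.35 CPM. The untreated old bladders had 1.503 at the lowest, 1.82 at the median and 2.43 CPM at the highest. All 6 untreated old bladders were above all 5 middle-aged ones, and the groups did not overlap. The means were 1.93 ± 0.409 CPM (SD, n = 6) and 1.32 ± 0.0937 CPM (SD, n = 5), a rise of 0.56 on the log2 scale (SE 0.15, 95% interval 0.24 to 0.88, 1.47-fold, adjusted p = 0.0157, edgeR's quasi-likelihood test with Benjamini-Hochberg adjustment over all genes). Of the 5 members only Pgr passed here, against 24% of 17156 genes tested, 13% being higher. Groups that do not overlap with the old group higher were found for 7.61% of the genes.

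The coefficient of variation of Pgr in the middle-aged bladders was 7.08%, below the 14.9% that counting error alone would give at these counts. With all 6 groups in one fit, which share 1 estimate of the spread, the difference was 0.56 on the log2 scale with an adjusted p of 0.261 and did not pass. The test on the deposited log2 values gave 0.48 and an adjusted p of 0.0705. Without any 1 of the 11 bladders the adjusted p stayed at 0.0107 to 0.0452.

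In young bladders Pgr had 0.483 CPM at the lowest, 0.873 at the median and 2.58 CPM at the highest. Young replicate 3, the shallowest library, held the highest value and stood apart from the other 5, which were at or below 1.26 CPM. The young mean was 1.10 ± 0.773 CPM (SD, n = 6). Against it, the untreated old group was 0.87 higher on the log2 scale (SE 0.33, 95% interval 0.16 to 1.58, adjusted p = 0.0693, edgeR) and did not pass. Without young replicate 3 the difference was 1.24 with an adjusted p of 0.00300, and in the fit of all 6 groups it was 0.86 with an adjusted p of 0.0367. DESeq2 gave 0.85 and 0.0430, where it called 24.7% of genes. Middle-aged against young bladders differed by 0.32 (SE 0.34, adjusted p = 0.587, edgeR), which did not pass.

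Greb1, the estrogen receptor cofactor, was rose from young to old age. The young bladders had 0.542 CPM at the lowest, 0.870 at the median and 1.31 CPM at the highest. The untreated old bladders had 0.774 at the lowest, 2.01 at the median and 2.97 CPM at the highest. The groups overlapped: 4 of the 6 untreated old bladders were above all young ones, at 2.01 to 2.97 CPM, and replicates 1 and 6 were at 0.774 and 0.894 CPM. The means were 1.79 ± 0.825 CPM and 0.875 ± 0.280 CPM (SD, n = 6 each), a rise of 1.03 on the log2 scale (SE 0.32, 95% interval 0.33 to 1.72, 2.04-fold, adjusted p = 0.0331, edgeR). Of the 5 members only Greb1 passed in this comparison, against 25.1% of 16873 genes, 12.6% being higher.

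The call was lost without young replicate 1, 2, 3 or 6 and without untreated old replicate 2, 3, 4 or 5, with adjusted p of 0.0550 to 0.0794 and a log2 difference of at least 0.82. The test on the deposited log2 values gave 0.86 and an adjusted p of 0.101.

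In middle-aged bladders Greb1 had 1.57, 1.24, 1.13, 1.10 and 1.41 CPM, so that 2 of 5 were above all young bladders. Middle-aged against young bladders differed by 0.55 on the log2 scale (SE 0.22, 95% interval 0.084 to 1.01, unadjusted p = 0.0241, adjusted p = 0.119, edgeR), and without young replicate 4 by 0.66 with an adjusted p of 0.0402. None of the 5 members passed in that comparison, against 10.8% of 16754 genes, and 1 of the 5 was under an unadjusted p of 0.05, against 27.2% of genes. With DESeq2 none passed either, against 14.3% of genes. From 10 to 26 months it differed by 0.49 (SE 0.30, adjusted p = 0.273), with 4 of the 6 old bladders above and 2 below all middle-aged ones. The coefficient of variation of Greb1 was 31.96% in young, 15.2% in middle-aged, 46.2% in untreated old, 34.2% in water-treated, 25.1% in vehicle-treated and 51.6% in D + Q-treated old bladders, against 12.3% to 21.1% from counting error.

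Esr1, the more abundant nuclear estrogen receptor in these bladders, passed in no comparison of ages. Young bladders had 13.2 CPM at the lowest, 17.1 at the median and 23.4 CPM at the highest. Middle-aged bladders had 15.4, 18.7, 18.9, 17.2 and 17.5 CPM. Untreated old bladders had 15.8 at the lowest, 21.1 at the median and 22.004 CPM at the highest, 5 of the 6 being above all middle-aged bladders and replicate 1 low. From 10 to 26 months Esr1 differed by 0.23 on the log2 scale (SE 0.082, 95% interval 0.057 to 0.41, 1.18-fold, unadjusted p = 0.0136, adjusted p = 0.0551, edgeR), just outside the threshold. It passed without untreated old replicate 1 (0.30, adjusted p = 0.00290) and with DESeq2 (0.24, adjusted p = 0.0270), which called 22.3% of genes in this comparison. Untreated old against young bladders differed by 0.20 (SE 0.12, adjusted p = 0.238), and passed without young replicate 2, the highest young bladder (0.31, adjusted p = 0.0371). Middle-aged against young bladders differed by -0.021 (95% interval -0.28 to 0.24).

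Esr2, the other nuclear estrogen receptor, and Gper1 did not pass at any age step. Esr2 lay at 0.425 to 1.25 CPM in young, 0.622 to 1.11 in middle-aged and 0.542 to 1.11 CPM in untreated old bladders, and the 3 groups overlapped. Untreated old against young bladders differed in Esr2 by 0.027 on the log2 scale, with a 95% interval of -0.52 to 0.57. Gper1 lay at 0.717 to 1.53 CPM in young, 1.02 to 1.49 in middle-aged and 0.727 to 1.34 CPM in untreated old bladders. Untreated old against young bladders differed in Gper1 by -0.19, with a 95% interval of -0.62 to 0.24. Counting error alone gave a coefficient of variation of 17.9% to 23.2% for Esr2 and 14.7% to 17.8% for Gper1 over the groups.

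Across all 6 groups, the mean level of Pgr ran from vehicle-treated old (2.37 CPM) through D + Q-treated old (2.09), untreated old (1.93), water-treated old (1.57) and middle-aged (1.32) to young bladders (1.10 CPM). That of Greb1 ran from D + Q-treated old (1.87 CPM) through untreated old (1.79), vehicle-treated old (1.52), water-treated old (1.48) and middle-aged (1.29) to young bladders (0.875 CPM). Neighbours in the order of Pgr differed by less than the larger of their SDs, and so did those of Greb1, apart from middle-aged and young. For Esr1 the order was untreated old (20.3 CPM), water-treated old (19.6), D + Q-treated old (19.5), vehicle-treated old (18.7), young and middle-aged (17.6 CPM each). Gper1 ran from 1.31 CPM in water-treated old to 1.07 CPM in untreated old bladders, and Esr2 from 0.922 CPM in middle-aged to 0.521 CPM in vehicle-treated old bladders. For Esr1, Gper1 and Esr2 no neighbours differed by more than the larger of their SDs.

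**Figure D2:**
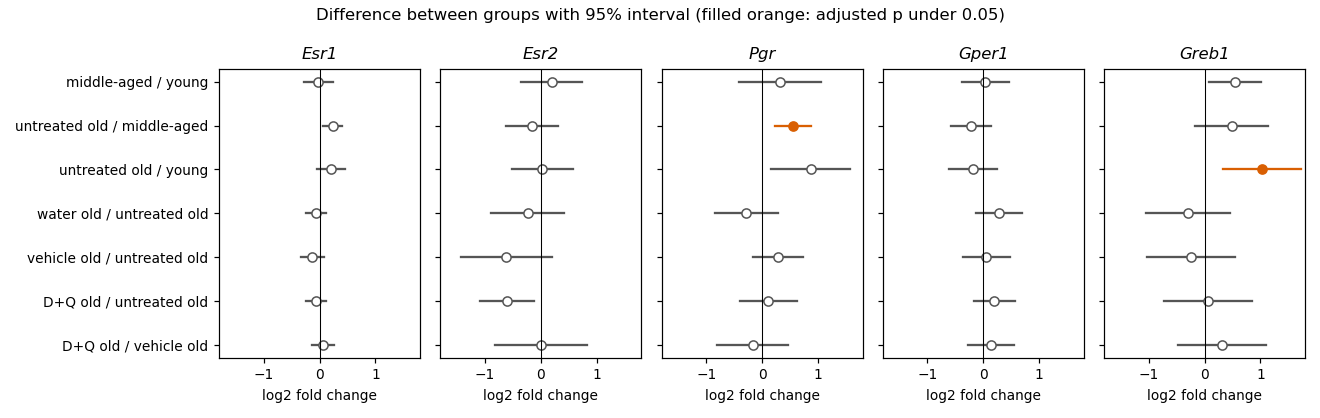
Log2 fold change of each member (x axes) in the 7 comparisons (y axis), with its 95% interval. The 2 filled points that passed were Pgr from 10 to 26 months (0.56) and Greb1 from 2 to 26 months (1.03), and all points of the 4 treatment comparisons are open.

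The treated old groups addressed whether gavage, its vehicle or D + Q altered the receptors at 26 months. None of the 5 members passed in any of the 4 comparisons, by edgeR or, for the members to which it gave an adjusted p, by DESeq2. The share of genes called by edgeR was 1% for water-treated and 0% for vehicle-treated and D + Q-treated against untreated old mice, and 0% between D + Q and vehicle. In the same order 16%, 8.39%, 12.9% and 4.18% of genes were under an unadjusted p of 0.05 (2760, 1464, 2200 and 722 genes), and DESeq2 called 4.67%, 0.832%, 1.19% and 0.0739% (693, 123, 189 and 13 genes). Among the members, 1 value was under an unadjusted p of 0.05, that of Esr2 between D + Q-treated and untreated old mice. The comparisons with untreated old mice share those 6 bladders.

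Esr2 in untreated old bladders was 0.542 CPM at the lowest, 0.748 at the median and 1.11 CPM at the highest. In D + Q-treated old bladders it was 0.331 at the lowest, 0.530 at the median and 0.748 CPM at the highest, 3 of the 6 being below all untreated ones. The difference was -0.61 on the log2 scale (SE 0.23, 95% interval -1.10 to -0.12, unadjusted p = 0.0192, adjusted p = 0.333, edgeR). The 4 vehicle-treated old bladders had 0.463, 1.02, 0.368 and 0.235 CPM, 3 of them below all untreated ones, and differed by -0.62 (SE 0.37, adjusted p = 0.654). The 5 water-treated old bladders had 0.368, 0.988, 1.08, 0.467 and 0.540 CPM and differed by -0.23 (adjusted p = 0.747). D + Q-treated against vehicle-treated old bladders, where both groups received the same vehicle, differed by 0.0078 with a 95% interval of -0.82 to 0.83. These values rest on 5 to 39 counts per bladder.

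Pgr had 0.789, 2.43, 1.96, 1.64 and 1.02 CPM in water-treated and 2.10, 2.25, 1.89 and 3.24 CPM in vehicle-treated old bladders. In D + Q-treated old bladders it was 1.13 CPM at the lowest, 2.03 at the median and 3.52 CPM at the highest. Each treated group overlapped the untreated old one. Between D + Q-treated and untreated old mice Pgr differed by 0.11 on the log2 scale (95% interval -0.39 to 0.62) and between D + Q and vehicle by -0.17 (95% interval -0.80 to 0.46).

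Greb1 had 2.00, 2.00, 1.39, 1.10 and 0.910 CPM in water-treated and 1.90, 1.04, 1.40 and 1.74 CPM in vehicle-treated old bladders. In D + Q-treated old bladders it was 1.06 at the lowest, 1.68 at the median and 3.55 CPM at the highest. D + Q replicate 1 held the highest level of both Greb1 and Pgr among all 32 bladders. Between D + Q-treated and untreated old mice Greb1 differed by 0.067 (95% interval -0.72 to 0.85), and without that bladder by -0.22.

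Esr1 was the most closely bounded: between D + Q-treated and untreated old mice it differed by -0.059 (95% interval -0.24 to 0.12) and between D + Q and vehicle by 0.067 (95% interval -0.13 to 0.27). Gper1 differed by 0.20 (95% interval -0.17 to 0.57) and 0.14 (95% interval -0.27 to 0.54) in the same comparisons. Water-treated against untreated old bladders differed in Gper1 by 0.29 (SE 0.19, adjusted p = 0.487), with 3 of 5 above all untreated ones.

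A further list of 12 genes held the estrogen-related receptors, the membrane progesterone receptors and the glucocorticoid and mineralocorticoid receptors. Among them 11 were tested at each age step. From 10 to 26 months 1 rose and 3 fell, beside 13% and 11% of all genes. Paqr9, a membrane progestin receptor, rose from 0.461 ± 0.183 to 1.33 ± 0.747 CPM, by 1.55 on the log2 scale (adjusted p = 0.0156). Paqr7, another of that family, had a log2 difference of -0.21 (adjusted p = 0.00261), Pgrmc2, a membrane-associated progesterone receptor component, of -0.19 (adjusted p = 0.00121) and Paqr5 of -0.13 (adjusted p = 0.00934). The list's median was -0.065, beside -0.0047 over all genes tested. From 2 to 10 months, where 10.8% of all genes were called, Paqr5 (0.23) and Pgrmc1 (0.18) rose and none fell. From 2 to 26 months, where 25.1% of all genes were called, Paqr9 rose by 2.06 and Paqr6 fell by 0.48.

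Of 18 coregulators and chaperones of the receptors, each was tested at each age step. The share of all genes called was 10.8% from 2 to 10, 24% from 10 to 26 and 25.1% from 2 to 26 months. From 10 to 26 months Hsp90aa1, a chaperone that holds unliganded steroid receptors, rose by 0.24 (adjusted p = 0.0144), Gata3, a partner factor of the estrogen receptor and a urothelial regulator, had a log2 difference of -0.14 (adjusted p = 0.0128), and 16 did not pass. Between young and middle-aged mice Foxa1, a pioneer factor, rose by 0.23 and none fell. Between young and untreated old mice 4 rose and 1 fell, the rises led by Nrip1, an estrogen-induced corepressor (0.50, from 39.4 ± 6.43 to 56.0 ± 5.61 CPM). The list's medians stayed at 0.041, 0.024 and 0.035 from 2 to 10, from 10 to 26 and from 2 to 26 months.

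Of 20 genes known to be induced by estrogen in uterus or breast cells, 16 were tested from 10 to 26 months, of which 11 rose and none fell, beside 13% and 11% of all genes. This list, like the others, was chosen with earlier results of these data known. Its counts beside those of all genes are therefore a description and not an independent test. The median log2 difference of the 16 was 0.50. Myb, a transcription factor, rose by 2.23 (0.175 ± 0.128 to 0.808 ± 0.454 CPM), Areg, an epidermal growth factor receptor ligand, by 1.02 (0.917 ± 0.224 to 1.83 ± 0.678 CPM) and Susd3, a membrane protein of estrogen-responsive breast cells, by 1.0 (1.89 ± 0.168 to 3.71 ± 0.763 CPM). C3, the complement component that estrogen induces in uterus, rose by 0.99 (668 ± 104 to 1307 ± 222 CPM). Their adjusted p in edgeR were 0.00571 for Myb, 0.0121 for Areg, 0.000462 for Susd3 and 0.000174 for C3. Igf1, Xbp1, Ccn5, Cxcl12, Stc2, Ramp3 and Padi1 were the others.

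At the earlier age step the same list gave other counts. From 2 to 10 months 15 were tested, of which 1 rose and 4 fell, beside 4.96% and 5.85% of all genes, with a median of -0.24 beside 0.0028 over all genes. Padi1, a peptidylarginine deiminase, rose by 1.44 from 1.55 ± 0.581 to 4.20 ± 0.577 CPM (adjusted p = 0.00294). Igf1, a growth factor, fell by 1.33 (adjusted p = 0.0229), from 71.7 ± 41.7 CPM in widely spread young bladders to 29.0 ± 2.55 CPM. Ccnd1, a cyclin, fell by 0.58 (142 ± 31.0 to 95.6 ± 23.7 CPM, adjusted p = 0.0388) and Stc2 by 0.50 (30.3 ± 6.43 to 21.6 ± 1.06 CPM, adjusted p = 0.0227). From 2 to 26 months 5 rose and 2 fell of 16, with a median of 0.085, where 25.1% of all genes were called, 12.6% being higher. Padi1 rose by 1.95 (adjusted p = 6.5e-05), Susd3 by 0.99 and Areg by 0.94, while Igf1 fell by 1.01 and Ccnd1 by 0.40. Middle-aged bladders are in both age steps, and the difference between the steps was not tested.

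**Figure D3:**
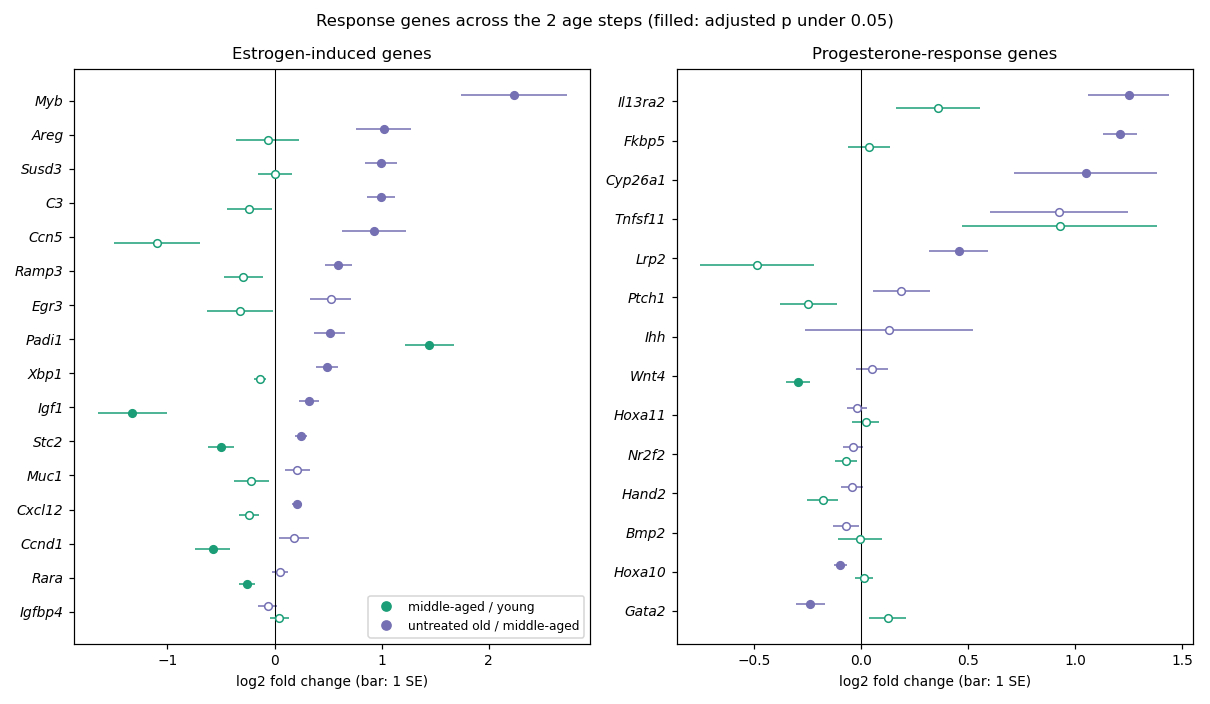
Log2 fold change with 1 SE (x axes) of the tested estrogen-induced genes (left) and progesterone-response genes (right) from 2 to 10 months and from 10 to 26 months. Filled points passed the test: on the left 11 in the later step, all to the right of 0, and in the earlier step 1 to the right and 4 to the left.

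Of 15 progesterone-response genes, 14 were tested from 10 to 26 months, of which 4 rose and 2 fell, beside 13% and 11% of all genes. Their median was 0.089. Il13ra2, a decoy receptor of interleukin-13 that progesterone induces in uterus, rose by 1.25 (5.29 ± 1.64 to 12.4 ± 2.33 CPM, adjusted p = 0.000507). Fkbp5, a chaperone partner of steroid receptors that glucocorticoids and androgens induce too, rose by 1.21 (33.96 ± 3.39 to 77.3 ± 8.03 CPM, adjusted p = 2.7e-06). Cyp26a1, which degrades retinoic acid, rose by 1.05 from 0.252 to 0.523 CPM (adjusted p = 0.0368), while Gata2 (-0.24) and Hoxa10 (-0.098), transcription factors of the uterus, fell. Over the whole span from 2 to 26 months 3 rose and 2 fell of 13, where 25.1% of all genes were called. Tnfsf11, the RANK ligand, rose by 1.84 (0.213 ± 0.127 to 0.808 ± 0.237 CPM), Il13ra2 by 1.59 and Fkbp5 by 1.24, with Wnt4 at -0.26 and Hand2 at -0.23. Between 2 and 10 months, where 10.8% of all genes were called, Wnt4, a Wnt ligand downstream of progesterone, fell by 0.30 and 11 of 12 did not pass.

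Of 14 genes of steroid synthesis and metabolism tested at each step, 2 rose and 2 fell from 10 to 26 months, where 24% of all genes were called. Cyp11a1, which makes pregnenolone from cholesterol, rose from 0.279 ± 0.108 to 1.99 ± 1.71 CPM (2.82 on the log2 scale, adjusted p = 0.00674), and Sult1a1, a sulfotransferase, rose by 0.52. Hsd17b2, which oxidises estradiol to estrone, fell by 0.33 (23.6 ± 2.13 to 18.5 ± 1.57 CPM, adjusted p = 0.00529), and Srd5a1, a steroid reductase, by 0.22. Between 2 and 26 months, where 25.1% of all genes were called, Cyp11a1 (2.37), Sult1a1 (0.37) and Star (0.31), the cholesterol carrier of mitochondria, rose, and Cyp7b1 (-0.75), a hydroxylase, and Hsd17b2 (-0.38) fell. Between 2 and 10 months, where 10.8% were called, Srd5a1 (0.19) rose and Cyp7b1 (-0.45) fell. Cyp19a1, the aromatase that makes estrogens, and Shbg, a plasma carrier of sex steroids, had 0 counts in each of the 32 bladders, which in the shallowest library allows up to 0.199 CPM for counting error only.

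In the treatment comparisons none of the tested genes of these 5 lists passed by edgeR. Fkbp5 had 70.5 ± 11.8 CPM in water-treated, 83.2 ± 13.8 in vehicle-treated and 78.4 ± 11.2 CPM in D + Q-treated mice. Il13ra2 had 8.31 ± 2.31, 8.87 ± 2.83 and 10.3 ± 1.43 CPM in the same groups.

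Markers of other cells moved at the same age steps as Pgr, Greb1 and the response genes. Of all genes, 10.8% were called from 2 to 10, 24% from 10 to 26 and 25.1% from 2 to 26 months. From 10 to 26 months 7 of 8 leukocyte markers rose (median 3.29 on the log2 scale), and their summed level ran from 444 to 1119 CPM in untreated old against 187 to 227 in middle-aged and 157 to 341 CPM in young bladders. Myb, Xbp1 and C3 of the estrogen-induced list are also expressed by leukocytes. In the same comparison 3 of 6 urothelium, 2 of 6 smooth muscle and 1 of 7 fibroblast markers fell, and the summed fibroblast markers were at 7415 to 8638 CPM in untreated old, 8055 to 9996 in middle-aged and 11353 to 19640 CPM in young bladders. Of the 5 endothelium markers 1 rose and 1 fell, none of the 5 adipocyte markers passed, 1 of 4 skeletal muscle markers fell and, of 6 female reproductive tract markers tested, Krt1 and Krt10 fell. From 2 to 10 months 3 of 8 leukocyte markers rose, 5 of 7 fibroblast, 2 of 5 endothelium and 1 of 4 skeletal muscle markers fell, and of 5 female reproductive tract markers tested Lor, a gene of cornified epithelium, rose by 1.60 (adjusted p = 0.0130). From 2 to 26 months 6 of 8 leukocyte markers rose, 6 of 7 fibroblast, 3 of 6 smooth muscle and 3 of 4 skeletal muscle markers fell, 1 of 5 endothelium markers rose and 3 fell, and of 6 female reproductive tract markers tested Lor rose by 1.46 (adjusted p = 0.00492). The urothelium and adipocyte markers gave no call at either of these steps, nor did the smooth muscle markers from 2 to 10 months. The part of these cells in the differences of the members and lists was not tested.

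Whether the 5 genes varied together from bladder to bladder was examined after subtracting each group's mean from log2(CPM + 0.1), over 32 bladders and 10 pairs with 100000 permutations within groups. None of the 10 pairs passed after Benjamini-Hochberg adjustment. Gper1 and Greb1 had the lowest unadjusted p, with r = -0.40 (permutation p = 0.0442, adjusted 0.295) and rho = -0.41 (permutation p = 0.0363, adjusted 0.217), and r = -0.32 without the 2 bladders farthest from the median of Gper1. Esr1 and Pgr had r = 0.41 (permutation p = 0.0829, adjusted 0.295) and rho = 0.36 (permutation p = 0.0652, adjusted 0.217), and r = 0.38 without the 2 farthest. Pgr and Greb1 had r = 0.28 (permutation p = 0.148, adjusted 0.295) and rho = 0.37 (permutation p = 0.0636, adjusted 0.217). Without the 2 bladders farthest from the median of Pgr their r was 0.51, so that this value rests on those bladders. In the 21 bladders of the 4 old groups alone Pgr and Greb1 had r = 0.52 (permutation p = 0.0206, adjusted 0.119) and rho = 0.49 (permutation p = 0.0373, adjusted 0.228). In these 21 bladders Esr1 had r = 0.50 with Pgr (permutation p = 0.0237, adjusted 0.119; rho = 0.35) and r = 0.50 with Greb1 (permutation p = 0.0467, adjusted 0.149; rho = 0.35). In the 17 untreated bladders of 3 ages Pgr and Greb1 had r = 0.017 and rho = 0.30 (permutation p = 0.950 and 0.279).

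**Figure D4:**
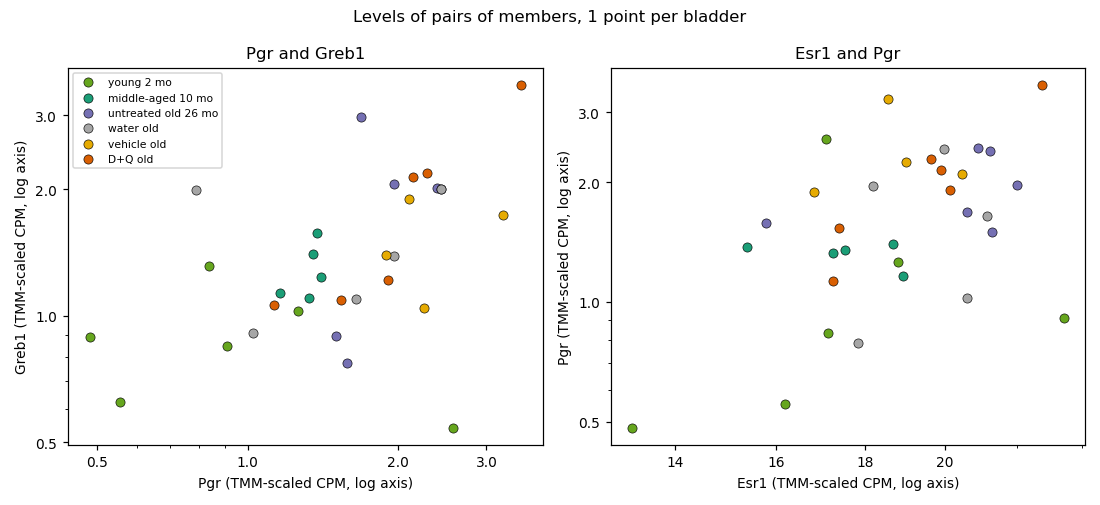
TMM-scaled CPM on log axes of Greb1 against Pgr (left) and of Pgr against Esr1 (right), 1 point per bladder, coloured by group. The young bladder at 2.58 CPM of Pgr had the lowest Greb1 level, 0.542 CPM, and the D + Q-treated bladder at 3.52 CPM of Pgr the highest, 3.55 CPM.

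The genes nearest to each member were taken as those of highest Pearson r in log2(CPM + 0.1) over the 32 bladders, among 15042 genes at 1 CPM or more, as a description with no test. For Esr1 they were H6pd (r = 0.72), Pkhd1l1 (0.71) and Snx30 (0.71), and after subtracting group means Ghr, the growth hormone receptor (0.77), Phactr2 (0.75) and Mbd5 (0.71). For Pgr they were Susd1 (0.74), A730046J19Rik (0.72) and Pls1 (0.71), and after subtracting group means Ampd3, Ccn3 (0.72 each) and Adm, the vasodilator peptide adrenomedullin (0.70). For Greb1 they were Hectd2 (0.74), Ankrd12 (0.72) and the clock gene Per3 (0.68), and Hectd2 also led after subtracting group means (0.64). For Gper1 they were Wdr75 (0.73), Clcn6 (0.69) and Wdr4 (0.68), and for Esr2 Caprin2 (0.66), Msl3l2 (0.65) and Pigg (0.65). Of these nearest genes none was another member or on a list of response genes, which make up few of the 15042 genes. Esr2 and the rarest response genes, such as Myb, had means under 1 CPM and could not appear. The bladders of a group share age and treatment, and the libraries differ in depth.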

How the data were processed

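Total RNA was sequenced from 32 single mouse bladders with a stranded kit, and the labels gave each bladder's age and treatment group. Alignment by the authors used STAR 2.7.3 and mm10, and the gene counts they deposited came from featureCounts, unnormalized, with a column of exon length per gene. The second table that the authors deposited holds log2 values: 1 was added to each count, the sum divided by exon length, and the results scaled to a total of 100000 per bladder. It served as an alternative. The study's methods name edgeR but no filter, covariate or strand setting.

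Counts were tested with edgeR 4.0.16 in R 4.3.3: TMM, filterByExpr, the quasi-likelihood test within each pair of groups, and Benjamini-Hochberg adjusted p under 0.05 over all genes tested. TPM and CPM came from the counts. Each SE from edgeR was the size of the log2 difference divided by the square root of the test's F statistic. The 95% intervals were built from that SE. The edgeR procedure was run on simulated counts with a fixed spread, in which the changed genes were not among the rarest. That run does not cover the lowest counts of the members. Alternatives were DESeq2 1.42.0, limma 3.58.1 on the deposited log2 values, DESeq2-style size factors, no filter, all 6 groups in one fit, a replicate block and leaving out each bladder. Summed counts were 15088372 to 52650259 per bladder, and counting error is given beside the spread between bladders.

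The 5 genes, the 5 pathway lists and the 8 marker lists were chosen with earlier results of these data known. Lists were matched by symbol, which Hsd17b8 and Sts were not. A few list genes that passed are not reported here by name. Named beside the members are up to 3 genes with the largest rise and 3 with the largest fall past the threshold in each pathway list, up to 3 marker genes per list, and the 3 genes of highest correlation with each member. C3, the remaining estrogen-induced genes that rose, Cyp19a1, Shbg and the treated levels of Fkbp5 and Il13ra2 were chosen after their values were seen. Promoter windows came from RefSeq in GRCm38.p6, where each of the 5 genes matched. Replicates are bladders of separate mice as far as the labels say, and the p-values of the group comparisons set each difference against the spread between them.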

Additional observations from a re-analysis of the deposited data

Results flagged for a closer look

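In 30 sets of 4 to 6 bladders (5 genes in 6 groups), 2 extreme values stood apart from the rest of their group by Dixon's criterion, which chance passes in about 1 of 20 groups. The Esr1 level of untreated old replicate 1 was the lowest of its group at 15.8 CPM, with a gap to its neighbour of 0.777 of the group's range (critical value 0.625 for 6 bladders), and without this bladder Esr1 passed the test in untreated old against middle-aged bladders (0.30 on the log2 scale, adjusted p = 0.00290, edgeR). The Pgr level of young replicate 3 was the highest of its group at 2.58 CPM, with a gap of 0.628 of the range, in the library with the lowest total, 15088372 counts. Without it, Pgr passed in untreated old against young bladders (1.24, adjusted p = 0.00300, edgeR).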

How the results depend on the processing

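Esr2, Gper1, Pgr and Greb1 rest on 5 to 118 counts per bladder, and counting error alone gave coefficients of variation of 11.3% to 23.2% in them. Among the members, 1 passed from 10 to 26 months of age, but 2 with the replicate block or DESeq2 and 0 with all 6 groups in one fit or with limma on the deposited log2 values. In untreated old against young bladders 1 passed, but 2 with the block, with all 6 groups in one fit or with DESeq2, and 0 with limma. Leaving out 1 bladder gave 1 to 2, 0 to 1 and, in middle-aged against young bladders, 0 to 1 members. The members that changed sides were Esr1 (0.22, adjusted p = 0.0305 with the block) and Pgr in the first comparison, and Pgr (0.95, adjusted p = 0.0228 with the block), Greb1 and, without young replicate 2, Esr1 (0.31, adjusted p = 0.0371) in the second. From 2 to 10 months Greb1 passed without young replicate 4 (0.66, adjusted p = 0.0402). The cause was not tested.

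Over all genes, middle-aged against young bladders gave 1811 calls, 716 with the block, 2858 with all 6 groups and 728 to 2794 without 1 bladder. Untreated old against middle-aged bladders gave 4110, and 2519 with all 6 groups. Water-treated against untreated old bladders gave 173, 99 without the filter, 693 with DESeq2, 0 with the block, all 6 groups or limma and 37 to 199 without 1 bladder. Calls by DESeq2 were 123, 189 and 13 where edgeR made none.

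Directions turned for differences near 0: Esr1 in middle-aged against young (0.0068) and Esr2 in untreated old against young bladders (-0.028) with limma, and Gper1 with the block in vehicle-treated against untreated old (-0.076) and D + Q-treated against vehicle-treated old bladders (-0.011). Leaving out 1 bladder moved Esr1 from -0.10 to 0.084 and Gper1 from -0.062 to 0.13 in middle-aged against young, Esr2 from -0.12 to 0.17 in untreated old against young, Gper1 from -0.038 to 0.13 in vehicle-treated against untreated old, Pgr from -0.10 to 0.25 and Greb1 from -0.22 to 0.27 in D + Q-treated against untreated old, and Esr2 from -0.20 to 0.55 and Pgr from -0.39 to 0.0074 in D + Q-treated against vehicle-treated old bladders. In the 3 untreated ages alone r was 0.16 for Esr2 and Greb1 and 0.29 for Pgr and Gper1, both negative over all bladders. DESeq2 gave no adjusted p for Esr2 in the water and vehicle comparisons with untreated old mice, nor for Gper1 in the latter.

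Deviations of bladders with the same replicate number in the labels correlated at -0.37 to 0.26. In the middle-aged, water-treated and vehicle-treated groups some of these numbers differ from those in the library names. Differently numbered bladders were not compared, so this cannot tell whether samples were paired. The block, built on the same numbers, is given here for its counts.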

Other observations

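Within groups, the genes that tracked the rarer members from bladder to bladder were others than over all bladders, apart from Wdr75 and Hectd2. After subtracting group means, the highest Pearson r with Esr2 over 32 bladders was that of Lrrc18 (0.72), Bfsp1 (0.71) and Aldh5a1 (0.71), a mitochondrial dehydrogenase. With Gper1 it was that of Ttyh1 (0.76), Wdr75 (0.76) and Gm15964 (0.72). With Greb1 it was that of Hectd2 (0.64), Ahctf1 (0.61), a nucleoporin, and Baz1b (0.61), a chromatin remodeller. These are descriptions with no test, and for Esr2 and Gper1 they rest on few counts.

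Cyp11a1 varied widely among old bladders, with 1.99 ± 1.71 CPM in untreated (SD, n = 6), 4.47 ± 5.12 in water-treated (n = 5), 3.58 ± 3.97 in vehicle-treated (n = 4) and 0.791 ± 0.465 CPM in D + Q-treated old mice (n = 6). D + Q-treated against vehicle-treated old bladders differed by -2.19 on the log2 scale (SE 0.63), which did not pass (adjusted p = 0.994, edgeR), and against untreated old bladders by -1.34 (SE 0.56, adjusted p = 0.358). It was chosen for mention after its values were seen.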
